A study of Mus musculus with 81 samples.

Results

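The replication-dependent histone genes encode the H1, H2A, H2B, H3 and H4 proteins that package newly made DNA. They were followed across bone marrow neutrophils of inbred mouse strains. A probe set, the unit of the array, was taken as a member when the platform's gene table gave it at least 1 symbol of the canonical histone clusters (H1f1 to H1f5, H2ac, H2bc, H3c or H4c with a number), a rule that uses names and no measured value. It found 50 of the 24922 deposited probe sets: 4 for H1, 6 for H2A, 15 for H2B, 13 for H3, 11 for H4 and 1 that lists an H2B and an H1 gene. Of these, 26 carry 1 symbol and are named by gene, and 24 carry several symbols and are named by family and probe set number. The 62 symbols they hold lie on chromosome 13 (52 genes) and chromosome 3 (10 genes).

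The study sorted CD11b+ Ly6G+ cells from bone marrow of male mice aged 6 weeks, pooled several mice per sample and hybridised RNA of 81 samples to Affymetrix whole-transcript arrays, to chart how neutrophil expression differs between strains. Of 40 groups named by title, 37 have 2 arrays, FVB/NJ and SWR/J have 1 and C57BL/6J has 5. By common knowledge of the names, 5 groups are wild-derived strains: WSB/EiJ, PWD/PHJ, MSM/Ms, JF1/Ms and CAST/EiJ. The 35 classical groups are 129S1/SvImJ, A/J, AKR/J, C3H/HeJ, C57BL/10J, C57BLKS/J(662), C57L/J (668), CBA/CaJ, CBA/J, CE/J, DDY/JclSidSeyFrkJ, FVB/NJ, KK.Cg-Ay/J (which carries the Ay coat-colour allele), LGJ, LP/J(676), MA/MyJ, MRL/MpJ, NOD/ShiLtJ, NON/ShiLtJ, NOR/LtJ, NZB/BINJ, NZW/LacJ, P/J, PL/J, RIIIS/J, SEA/GnJ, SJL/J, SM/J, SWR/J, C57BL/6J and 5 more whose labels conflict. Those 5 are titled BPL (background label BALB/cByJ), BTBR (BPL/1J), Balb (BTBR T+ tf/J), C57BR (CBA/CaJ) and DBA2 (DBA/1LacJ). They are called by title here, and no strain identity is drawn from them.

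Values are log2 of the deposited intensity, and differences are log2 differences, so 1 is a 2-fold change. The 8 neutrophil markers read (Ly6g, Itgam, S100a8, S100a9, Csf3r, Cxcr2, Ngp, Camp) averaged between 13.18 in MSM/Ms and 13.36 in A/J. Array medians ran from 97.2 to 114.8 intensity units. The arrays least like the rest were NZB/BINJ replicate 1, with a median correlation with other arrays of 0.96, and replicate 2 of JF1/Ms, MSM/Ms and C57L/J (668), each at 0.97. In a sorted population, fewer cells that carry histone mRNA and less of it per cell cannot be told apart. The probes follow the C57BL/6J reference, and variants in other strains can lower a reading; this was not tested. With 2 arrays for most strains, it is the array count that sets the precision.

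H2A, H2B, H3 and H4 form the core of the nucleosome and H1 binds the linker DNA between nucleosomes. Most of these genes have no intron, and their mRNAs end in a stem-loop bound by Slbp in place of a poly(A) tail. They are transcribed when DNA is replicated, under the coactivator Npat and cyclin E with Cdk2, and the mRNAs are degraded when S phase ends. In the neutrophil lineage the early precursors divide, while band and segmented cells have left the cell cycle.

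Promoters of 57 of the 62 genes were matched in RefSeq's promoter table (assembly GRCm38.p6), and the 250 bases before each start were searched on both strands. The motifs were CCAAT (bound by NF-Y), TATAAA (the TATA box) and ATTTGCAT (the octamer bound by Oct-1). CCAAT was found in 47 of 57 histone windows (82.5%) and in 33.8% of all 32851 windows of the table. It was in all 14 H2B and all 17 H2A windows but in 3 of 11 H4 windows. TATAAA was found in 28 of 57 histone windows (49.1%), against 12.4% of all windows. ATTTGCAT was found in 12 of 57 (21.1%), against 1.60% of all windows; 6 of these were H2A and 6 H2B genes, and no H1, H3 or H4 window held it. The windows of 5 genes are shown because their values carry the results. H2ac4 and H2bc3 are neighbours with strong strain differences, and each holds all of the searched motifs. H4c4 and H1f5 varied strongly and lack the octamer. H1f2 ran apart from the other histones. Capitals mark these motifs or their reverse complements, and the letters before the start are in 5′ to 3′ order of the gene's strand.
H2ac4, chr13:23750838-23751087, plus strand: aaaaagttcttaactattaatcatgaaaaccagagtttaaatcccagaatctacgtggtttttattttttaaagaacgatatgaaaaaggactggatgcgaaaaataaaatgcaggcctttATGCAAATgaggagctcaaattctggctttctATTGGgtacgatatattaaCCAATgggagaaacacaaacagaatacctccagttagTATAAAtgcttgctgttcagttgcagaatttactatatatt
H2bc3, chr13:23746484-23746733, plus strand: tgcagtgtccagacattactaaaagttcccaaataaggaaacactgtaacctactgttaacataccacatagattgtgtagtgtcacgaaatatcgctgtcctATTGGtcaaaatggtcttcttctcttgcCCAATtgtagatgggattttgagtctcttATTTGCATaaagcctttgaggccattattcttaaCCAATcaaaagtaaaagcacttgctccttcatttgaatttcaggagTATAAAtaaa
H4c4, chr13:23581318-23581567, plus strand: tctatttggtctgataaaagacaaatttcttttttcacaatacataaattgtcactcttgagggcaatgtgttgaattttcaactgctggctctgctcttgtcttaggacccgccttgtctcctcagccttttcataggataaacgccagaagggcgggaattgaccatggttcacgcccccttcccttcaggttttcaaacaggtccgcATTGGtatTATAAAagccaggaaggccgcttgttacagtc
H1f5, chr13:21780626-21780875, minus strand: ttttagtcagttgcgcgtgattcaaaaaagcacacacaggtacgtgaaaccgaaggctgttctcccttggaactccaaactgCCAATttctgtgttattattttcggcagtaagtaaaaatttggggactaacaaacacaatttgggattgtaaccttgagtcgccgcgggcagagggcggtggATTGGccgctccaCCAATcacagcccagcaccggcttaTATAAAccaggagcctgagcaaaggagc
H1f2, chr13:23738557-23738806, plus strand: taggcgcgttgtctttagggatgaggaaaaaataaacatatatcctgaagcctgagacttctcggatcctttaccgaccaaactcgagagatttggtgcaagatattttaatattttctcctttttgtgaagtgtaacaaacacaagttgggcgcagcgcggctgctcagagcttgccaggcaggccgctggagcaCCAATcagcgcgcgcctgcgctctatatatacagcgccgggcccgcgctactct
A match is a run of letters and no evidence of binding.

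Histone transcripts differed between strains in every family. All 50 probe sets passed the F test over strains (limma moderated F, adjusted p under 0.05), where 56% of all probe sets passed, and 47 also spanned at least 2-fold between the highest and lowest strain mean, where 24.5% of all did. Among sets whose mean over the 81 arrays reached 7, here called bright, the counts were 41 of 41 histone sets for the test (84.9% of all bright sets) and 40 of 41 with 2-fold (42.5%). The 3 that spanned less than 2-fold were H3c7 (0.71), H2bc21 (0.94) and H2ac1 (0.99). The SD of the 40 strain means had a median of 0.57 over the histone sets and of 0.14 over all probe sets (0.21 over bright ones). Differences between strains held a median of 86.4% of the variance of a histone set, against 33.3% over all sets and 54.9% over bright ones.

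The 50 sets are far fewer independent measures. The histone copies are near-identical, and the 10 H3 sets that each list 12 genes gave almost the same profile over strains, with pairwise correlations of at least 0.998. The 4 H4 sets that list 11 genes correlated at 0.998 or more, the 6 shared H2B sets at 0.963 or more and the 2 shared H2A sets at 0.991. Even a set with 1 symbol may read related copies. Among the 18 bright sets with 1 symbol, pairwise correlations over the 40 strain means had a median of 0.65, with a lowest of -0.27 and a highest of 0.98. The count of 26 sets with 1 symbol is therefore given beside the main counts below.

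The mean over the 41 bright sets ordered the strains along a slope without a clear step. It was highest in NON/ShiLtJ (12.17), MRL/MpJ (11.98), the group titled BTBR (11.91), A/J (11.90) and AKR/J (11.89). It was lowest in the group titled C57BR (10.11), P/J (10.30), JF1/Ms (10.33), NOR/LtJ (10.45) and C57BL/6J (10.50). The median strain stood at 11.42, the SD over strains was 0.52, and the range of 2.06 is a 4.16-fold difference in geometric mean. The SD between arrays of a strain was 0.18, and only 2 gaps between neighbours in the order were above it, so most neighbours do not differ beyond the spread of their arrays. The 2 JF1/Ms arrays lay apart at 10.68 and 9.98, and the 5 C57BL/6J arrays at 10.27, 10.20, 10.50, 10.74 and 10.80. The mean of the 18 bright sets with 1 symbol had r = 0.99 over strains with the mean of all 41. Those 18 are part of the 41, so a high r is partly built in.

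**Figure D1:**
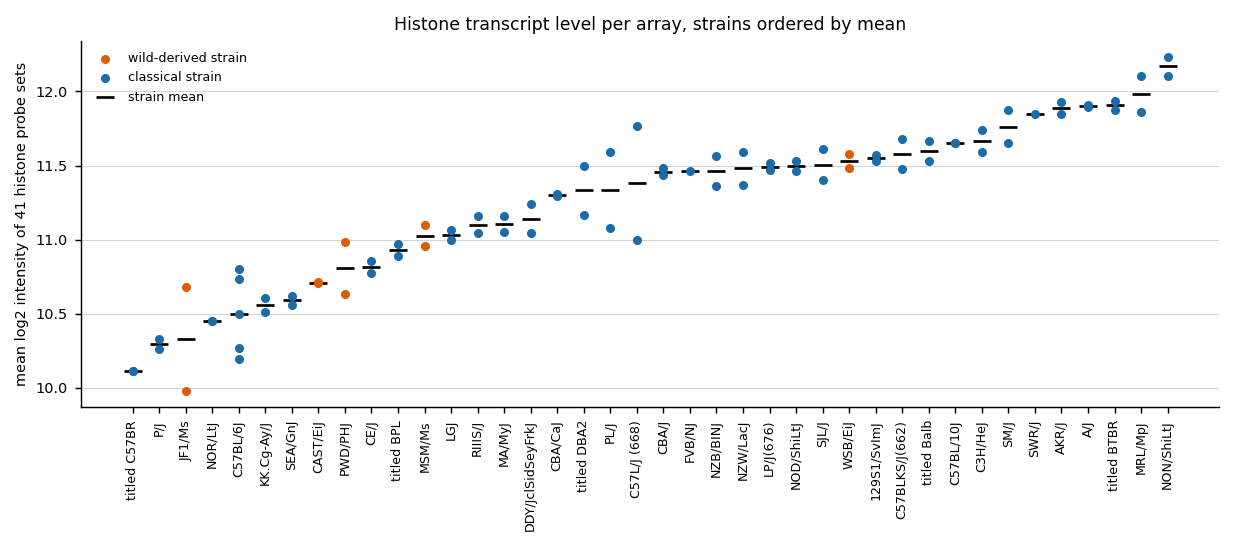
Mean log2 intensity of the 41 bright histone probe sets (vertical axis) for each array (points) and strain (black bars, the mean of its arrays), with strains ordered from the lowest mean, 10.11 in the group titled C57BR, to the highest, 12.17 in NON/ShiLtJ. Orange points are the 5 wild-derived strains, which lie between JF1/Ms at 10.33 and WSB/EiJ at 11.53.

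The shared sets of the families did not follow 1 order of strains. Taking the sets shared by many genes, H3 had an SD over strains of 0.71, H4 of 0.74, H2A of 0.48 and H2B of 0.35. H2A and H3 ran closest together (r = 0.98 over 40 strain means), while H4 correlated with H3 at 0.84 and H2B with H4 at 0.84. The sets come from the same arrays, and both shared H2A sets also list H3c4, which the shared H3 sets list as well. C57BL/6J shows the split: its mean over the shared H3 sets (11.46) was 1.54 below the median strain and 3rd from the lowest of the 40 strains, but its mean over the shared H4 sets (12.09) was only 0.50 below the median. CAST/EiJ was alike, at 1.36 below the median strain for H3 and 0.45 below it for H4. DDY/JclSidSeyFrkJ ran the other way, at 0.04 below the median for H3 and 0.64 below it for H4. These shared H4 sets list H4c4 and ran with it at r = 0.96, so the split was not shown for other H4 genes. With the mean of the other bright histone sets, H4c6 correlated at 0.97, H4c8 and H4c14 at 0.95, H4c9 at 0.73 and H4c3 at 0.54. NOR/LtJ lay 1.67 below the median for H3, 1.29 below for H4 and 0.21 below for H2B. In NON/ShiLtJ and MRL/MpJ, which had the highest histone means, the shared sets of all 4 families were above the median strain. The same held in several other strains, among them AKR/J, A/J and SWR/J.

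**Figure D2:**
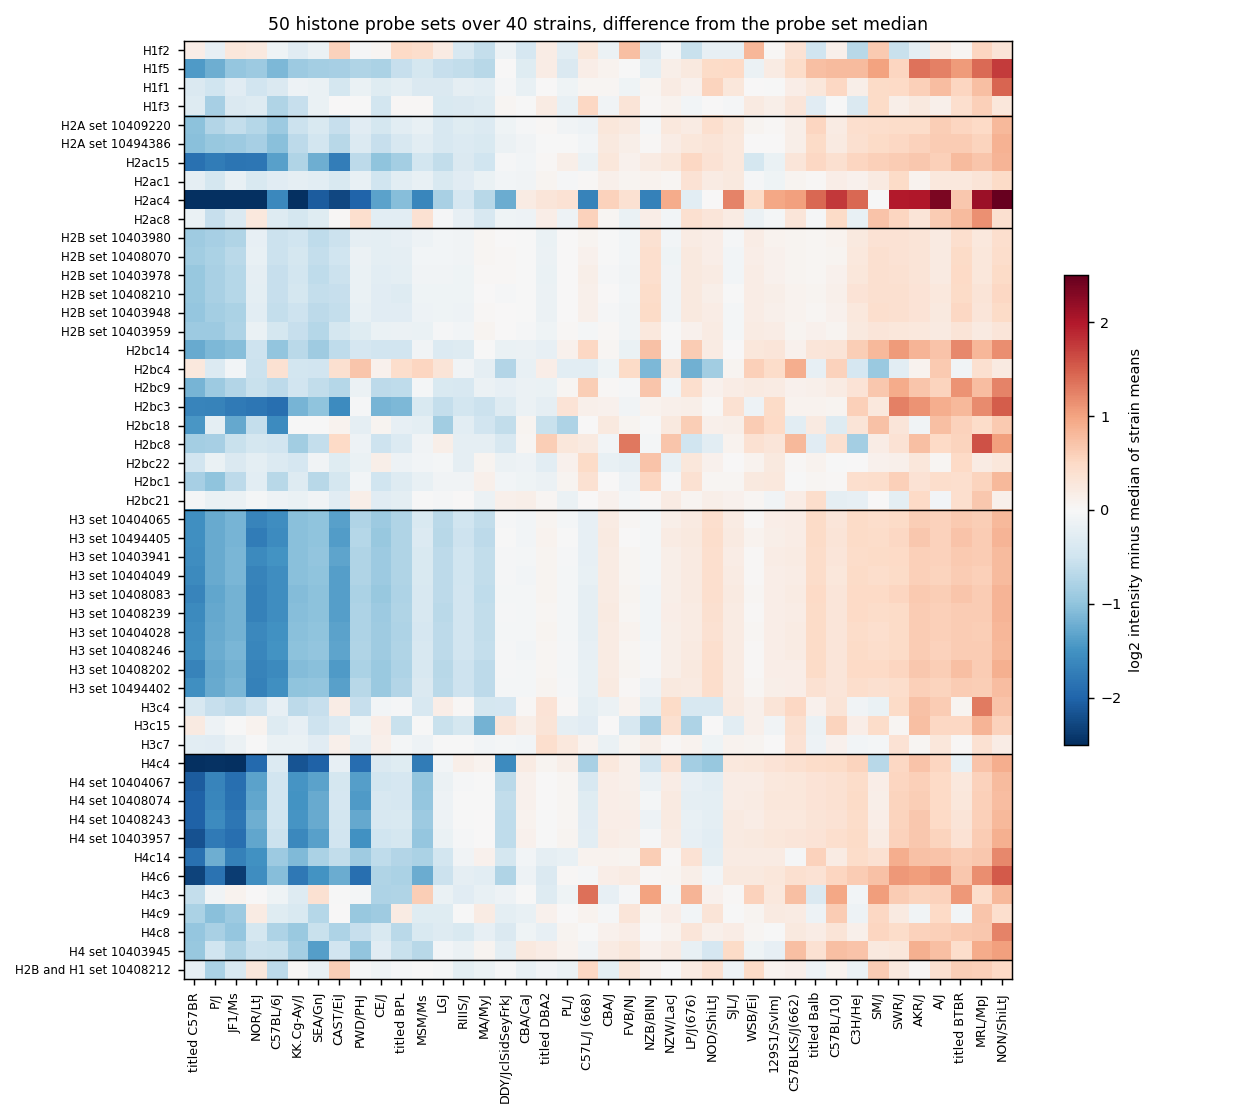
Each row is 1 of the 50 histone probe sets, grouped by family and ordered by mean level, and each column a strain in the order of the histone mean; colour gives the strain mean minus the probe set's median over strains (log2). The 10 shared H3 rows are near copies of each other. H4c4 and the shared H4 rows that list it are blue in a different set of strains, with C57BL/6J and CAST/EiJ much paler. H2bc4 and H1f2 do not follow the left-to-right gradient.

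Among linker histones, H1f5 had the widest range of 3.17, with a highest mean of 10.76 in NON/ShiLtJ and a lowest of 7.59 in the group titled C57BR (adjusted p = 4.65e-16, limma F). Its arrays read 10.82 and 10.70 in NON/ShiLtJ, against 7.70 and 7.48 in the group titled C57BR, and 10.17 and 10.68 in MRL/MpJ, against 8.24 and 8.63 in LGJ. H1f1 was dimmer and spanned 1.95, with 9.08 in NON/ShiLtJ and 7.13 in P/J. H1f3, at a mean of 6.32, spanned 1.42. H1f2 was the brightest of the 4 (mean 10.75) and spanned 1.52, from WSB/EiJ at 11.57 to C3H/HeJ at 10.05, but its order of strains had r = -0.03 with the mean of the other bright histone sets. Its FVB/NJ array read 11.50 and its C57BL/6J arrays lay between 10.34 and 10.85, which is close to the 10.83 and 10.89 of C57BL/10J. Both arrays of H1f2 in NON/ShiLtJ, the strain with the highest histone mean, lay at 10.64 and 11.49.

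H2ac4, an H2A gene next to H2bc3 with no annotated gene between them, varied most of all 50 sets. The deposited values gave an SD over strains of 1.64, a range of 5.72 and an SD between arrays of 0.61 (adjusted p = 1.59e-16, limma F). The arrays read 9.80 and 10.35 in NON/ShiLtJ, 9.65 and 9.68 in A/J, 8.84 and 10.07 in MRL/MpJ, and 4.56 and 4.15 in P/J. The top strains did not overlap the bottom ones, but replicates also differed more than for other members: C57L/J (668) read 4.29 and 6.99, and C57BL/6J from 4.60 to 6.70. The mean of H2ac4 over the 81 arrays falls just under 7, so it is not among the bright sets, and how far its lowest values lie above background was not examined. H2ac15 was brighter and more even, with 12.71 and 12.80 in NON/ShiLtJ, against 9.94 and 10.13 in the group titled C57BR and 10.17 and 10.01 in NOR/LtJ. The shared H2A sets 10409220 and 10494386 spanned 1.83 and 1.91, H2ac8, at a mean of 4.67, spanned 1.72, and H2ac1, known for expression in testis, had the smallest SD of the bright sets at 0.25.

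Of the H2B sets, H2bc3 varied most, with an SD of 0.90. It read 11.51 and 12.11 in NON/ShiLtJ and 11.25 and 11.72 in MRL/MpJ, against 7.81, 7.81, 8.59, 9.03 and 8.89 in C57BL/6J, its lowest strain. H2bc3 and its neighbour H2ac4 correlated at 0.87 over strain means. H2bc14 ranged over 2.45, with 12.32 in the group titled BTBR and 9.87 in the group titled C57BR. H2bc8 had its own order of strains (r = 0.67 with the other bright histone sets): it was highest in MRL/MpJ, at 9.59 and 9.22, and in the FVB/NJ array, at 9.14, and lowest in KK.Cg-Ay/J, at a mean of 6.94. H2bc18, on chromosome 3, was highest in A/J, at a mean of 9.80, and lowest in C57BL/6J, at 7.48. The 6 shared H2B sets were bright, with means from 12.54 to 12.97, and spanned 1.23 to 1.47, less than the shared H3 and H4 sets. H2bc22 had an SD of 0.26 and the set 10408212, which lists an H2B and an H1 gene, of 0.33.

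H2bc4 did not follow the other histones at all (r = 0.01 with the mean of the other bright sets). It was low in LP/J(676), NZB/BINJ, SM/J, NOD/ShiLtJ and DDY/JclSidSeyFrkJ, with means of 9.62, 9.71, 9.90, 9.95 and 10.10, and these 5 were the strains called at least 2-fold below C57BL/6J. It was highest in C57BLKS/J(662) at 11.74, then in PWD/PHJ at 11.53 and A/J at 11.49. Its arrays read 9.61 and 9.63 in LP/J(676), 9.70 and 9.72 in NZB/BINJ, 9.54 and 10.26 in SM/J, 9.91 and 9.99 in NOD/ShiLtJ and 10.37 and 9.82 in DDY/JclSidSeyFrkJ, against 11.44 and 12.03 in C57BLKS/J(662), so the replicates of SM/J, DDY/JclSidSeyFrkJ and C57BLKS/J(662) lay further apart. The annotated span of H2bc4 is 8282 bases, where the median of the 62 histone genes is 491 bases; the other genes over 1000 bases are H2bc6, H2bc21, H2bc22 and H2bc23. SM/J and NOD/ShiLtJ, low for H2bc4, had histone means above the median strain, at 11.76 and 11.50.

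H3 genes are read mainly through the 10 shared sets. Averaged over these, the arrays read 13.85 and 13.79 in NON/ShiLtJ, 13.49 and 13.76 in MRL/MpJ and 11.38 and 11.29 in NOR/LtJ, the lowest strain. The highest value in the deposited table is 19348 intensity units, and whether the brightest sets approach the upper end of the scanner's range was not tested. Of the H3 genes with a set of their own, H3c4 spanned 1.94 and was highest in MRL/MpJ at 7.97 and 7.85, H3c15 spanned 2.03, and H3c7 had the lowest level of the 3, at a mean of 5.42, with an SD of 0.18.

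H4c4 showed the largest share of variance between strains of the 50 sets, 94.2%, and a gap in its order of strains. Its 9 lowest strain means, from 10.08 to 11.29, were separated from the other 31, which began at 11.91, by a gap of 0.62, against an SD between arrays of 0.25. The gap holds for strain means and not for single arrays. The C57L/J (668) arrays had a mean of 12.05 and an SD of 0.71, which places the lower array inside it. The 9 were the group titled C57BR, JF1/Ms, P/J, KK.Cg-Ay/J, SEA/GnJ, NOR/LtJ, PWD/PHJ, MSM/Ms and DDY/JclSidSeyFrkJ. All 9 were called at least 2-fold below C57BL/6J, whose arrays read 12.24, 12.49, 12.42, 12.65 and 12.78. The group titled C57BR read 9.97 and 10.20 and P/J 10.47 and 10.31, while NON/ShiLtJ read 13.79 and 13.74 (adjusted p of the F test 7.13e-24, limma). The 4 shared H4 sets, which list H4c4 among their genes, correlated with it at r = 0.96 and are no separate measure of it. H4c6 ran with the other histones (r = 0.97), spanning 3.91 between NON/ShiLtJ, at a mean of 11.25, and JF1/Ms, at 7.35. H4c14, on chromosome 3, spanned 3.08 and followed the other histones at r = 0.95, whereas H4c3 had r = 0.54. Its highest mean, 9.81 in C57L/J (668), rests on replicate 2 at 10.72, one of the arrays least like the rest; replicate 1 read 8.90, below the mean of 9.51 in the group titled BTBR.

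**Figure D3:**
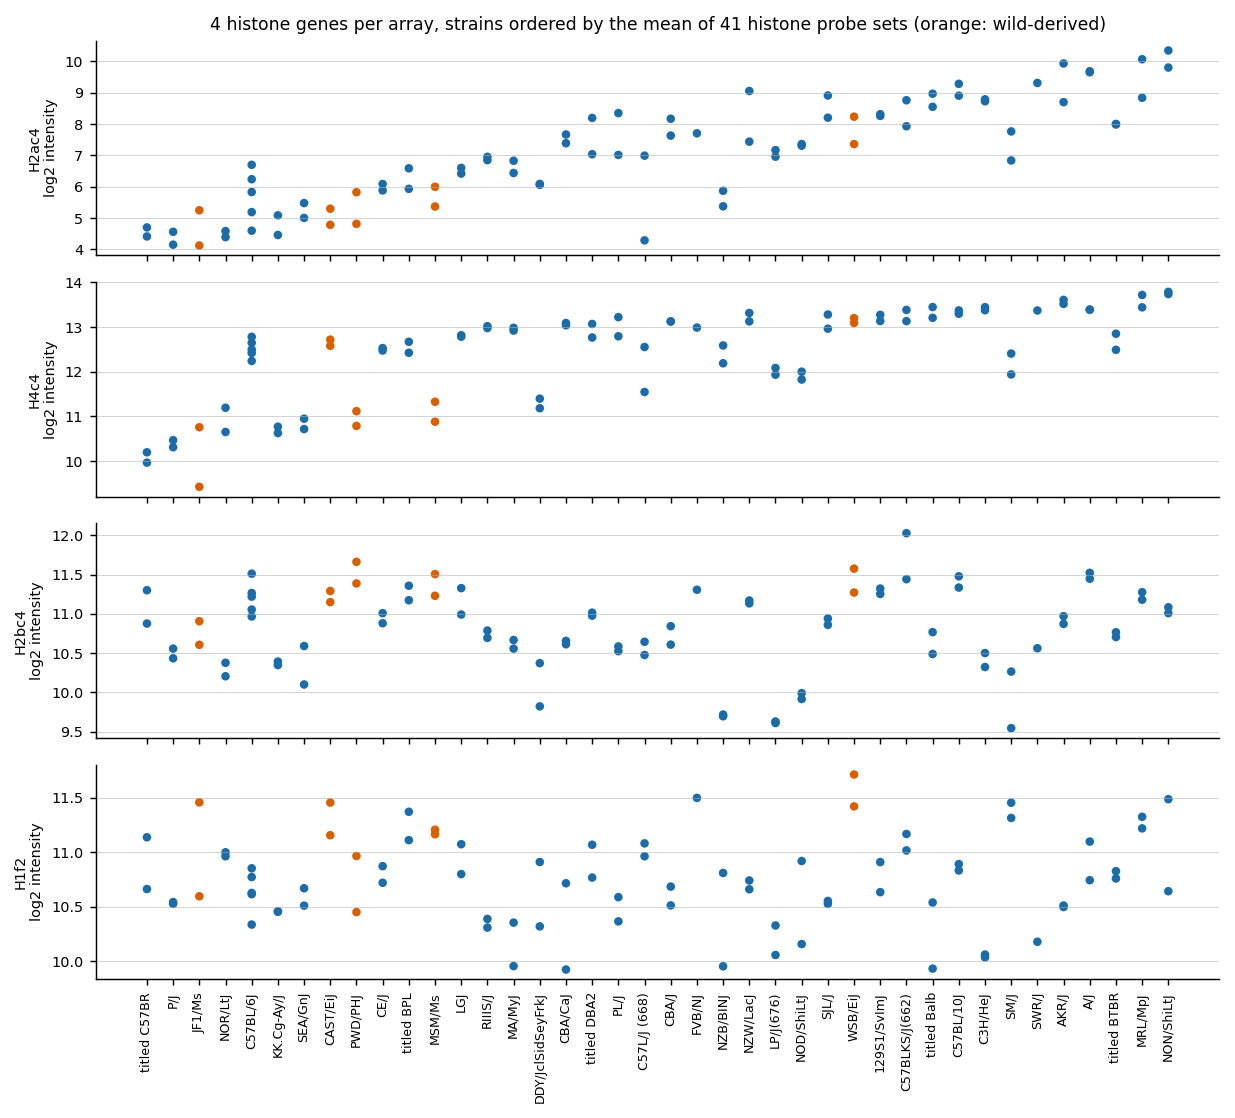
Log2 intensity of H2ac4, H4c4, H2bc4 and H1f2 on each array, with strains in the order of the histone mean and wild-derived strains in orange. H2ac4 climbs along the order with wide replicates, H4c4 is low in 9 strains and near or above 12 in most others, and H2bc4 and H1f2 show no slope along it.

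C57BL/10J and C57BL/6J are substrains with a recent common origin, and they differed widely in histone transcripts. Of the 50 sets, 41 were higher in C57BL/10J and 0 lower (limma, adjusted p under 0.05), against 1.89% of all probe sets higher and 0.766% lower; with 1 symbol, 17 of 26 were higher. The median difference was 0.91 over the histone sets and -0.01 over all sets. Arrays of both strains did not overlap for 46 of the 50 sets, but the share over all probe sets was not counted. In CBA/J minus CBA/CaJ, where no set was called, the same count was 29 of 50. That pair has 2 arrays against 2, and C57BL/10J minus C57BL/6J has 2 against 5, so these counts are not on the same scale. The 13 H3 sets had a median difference of 1.84 and the 11 H4 sets, all higher, of 0.96. H2ac4 was 3.38 higher (SE 0.47, adjusted p = 1.49e-06), at 9.28 and 8.90 in C57BL/10J, against 5.19, 4.60, 5.83, 6.24 and 6.70 in C57BL/6J. H2bc3 was 1.96 higher (adjusted p = 1.21e-05), H1f5 1.91 higher (adjusted p = 2.35e-07) and H4c4 0.82 higher (adjusted p = 0.0114). The H4c4 call was lost without either C57BL/10J array (adjusted p of 0.0516 and 0.311), and that of H4c6, 1.61 higher, without C57BL/10J replicate 3 (adjusted p = 0.124). The 9 sets that did not pass were H2bc4, H2bc21, H2bc22, H1f2, H1f3, H2ac8, H3c4, H3c7 and H3c15.

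MRL/MpJ, a lupus-prone strain bred largely from LG, was set against LGJ. All 50 histone sets had a positive difference and 37 passed the test (background 2.82% higher and 1.03% lower), with a median of 0.99; with 1 symbol, 20 of 26 passed. H3 led with a median of 1.29 and 12 of 13 sets called, all 6 H2A sets were called, and of the 15 H2B sets 7 were, none of them a shared set. H1f5 was 1.99 higher (SE 0.29, adjusted p = 3.26e-06), H2bc8 1.43 (adjusted p = 2.34e-08) and H4c6 1.69 (adjusted p = 0.00159), the last lost without LGJ replicate 1 (adjusted p = 0.066). H2ac4 read 8.84 and 10.07 in MRL/MpJ, against 6.42 and 6.60 in LGJ, a difference of 2.94 (adjusted p = 0.000311) that missed the threshold without MRL/MpJ replicate 2 (adjusted p = 0.0574). Without that array 24 sets were called in place of 37.

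NOD/ShiLtJ, which develops autoimmune diabetes, was set against NOR/LtJ, a related strain that does not. Of the 50 sets 25 were higher in NOD/ShiLtJ and 0 lower (background 3.05% and 2.5%), with a median of 0.72; with 1 symbol, 9 of 26. The difference was uneven between families: the median was 2.08 over H3, where 10 of 13 sets were called, and 0.37 over H2B, where 1 of 15 was. That H2B gene was H2bc3, 1.83 higher (SE 0.36, adjusted p = 0.00042). H2ac15 read 12.33 and 12.21 in NOD/ShiLtJ, against 10.17 and 10.01 in NOR/LtJ, 2.18 higher (adjusted p = 1.09e-08). H4c4 was 0.99 higher (adjusted p = 0.00593), but lost its call without NOD/ShiLtJ replicate 2 or NOR/LtJ replicate 1. H4c6, 1.49 higher, lost its call without NOD/ShiLtJ replicate 1 or 2 or NOR/LtJ replicate 2.

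In NON/ShiLtJ minus NOD/ShiLtJ, 20 of 50 sets were higher and 0 lower (background 2.71% and 3.07%), with a median of 0.47; with 1 symbol, 14 of 26. H4 sets made up 9 of the 20, with a median of 1.11 over the family, while 1 of 13 H3 sets was called, H3c4. H4c4 had a mean of 13.76 in NON/ShiLtJ, against 11.91 in NOD/ShiLtJ, with no overlap of arrays, a difference of 1.85 (SE 0.24, adjusted p = 9.97e-08). H2ac4 was 2.74 higher (adjusted p = 0.000682), H2bc8 1.30 higher (adjusted p = 1.33e-07) and H2bc4 1.09 higher (adjusted p = 1.78e-05). This comparison and the one before it share the NOD/ShiLtJ arrays, and the difference between them was not tested. The call of H2bc3 (1.48) was lost without NON/ShiLtJ replicate 2 or NOD/ShiLtJ replicate 2, that of H1f5 (1.26) without NOD/ShiLtJ replicate 2, and that of H4c6 (1.61) without NON/ShiLtJ replicate 2.

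In the CBA pair no histone set passed in CBA/J minus CBA/CaJ (0 higher and 0 lower of 50, against 1.14% and 0.566% of all), and 1 was higher at an unadjusted p under 0.05. The median difference was 0.17. H2ac4 read 7.63 and 8.17 in CBA/J, against 7.39 and 7.67 in CBA/CaJ (adjusted p = 0.893). The 10 shared H3 sets read 13.27 and 13.14 on average in CBA/J, against 12.95 and 12.93 in CBA/CaJ. When arrays were grouped by background label, which adds the group titled C57BR to CBA/CaJ, 21 sets were higher.

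NZB/BINJ, which develops autoimmune anaemia, was set against NZW/LacJ, a pair in which many probe sets of all kinds differed. It had 11 of 50 histone sets higher (22%) and 6 lower (12%), neither share above that of all probe sets (24.1% higher and 21.3% lower, with a median of all sets 0.10 higher); with 1 symbol, 6 were higher and 6 lower. H2B sets made up 9 of the 11, of which 5 are shared sets that read near-identical copies and 4 are single genes: H2bc22 (0.90 higher, adjusted p = 0.000773), H2bc9 (0.76 higher, adjusted p = 0.0102), H2bc14 and H2bc1. The lower ones were H2ac4, H2bc4, H2bc8, H3c4, H3c15 and H4c4. H2bc4 was 1.45 lower, at 9.70 and 9.72 in NZB/BINJ, against 11.13 and 11.17 in NZW/LacJ (adjusted p = 1.93e-08). H2ac4 was 2.62 lower (adjusted p = 0.000276), but missed the threshold without NZW/LacJ replicate 1 (adjusted p = 0.0505). The H4c4 call (difference -0.83) was lost without NZB/BINJ replicate 2 (adjusted p = 0.0629) or NZW/LacJ replicate 1 (adjusted p = 0.0729). These counts rest on single arrays: 5 sets were higher without NZB/BINJ replicate 1, which stood apart from all other arrays, and without NZW/LacJ replicate 1 there were 7 higher and 2 lower. With all arrays set to a common median 7 were higher.

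**Figure D4:**
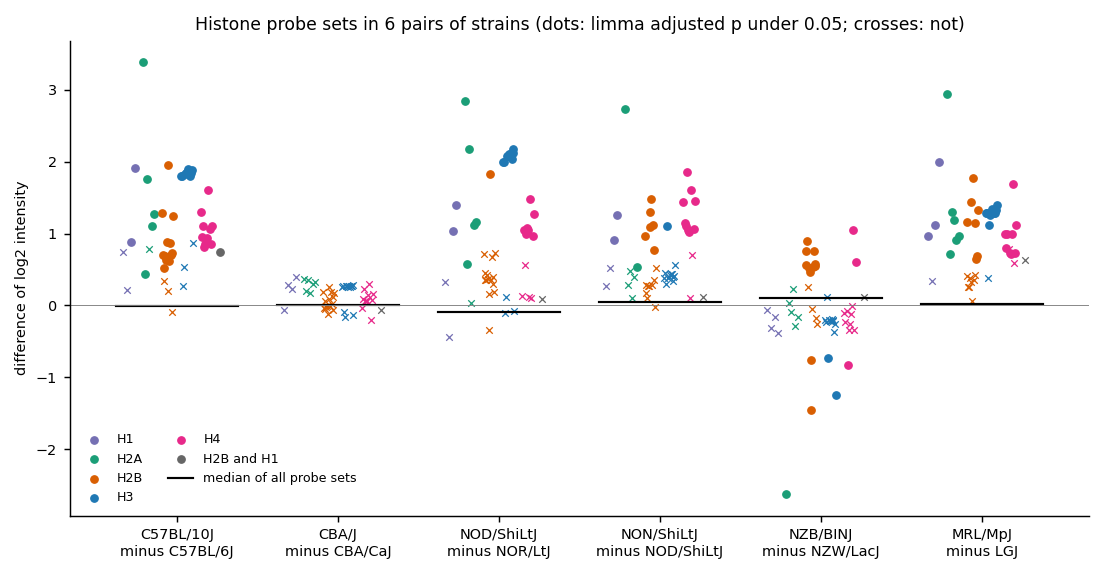
Difference in log2 intensity (vertical axis, first strain minus second) of each of the 50 histone probe sets in 6 pairs of strains, coloured by family; dots passed the limma test at an adjusted p under 0.05 and crosses did not. H3 dots lie near 1.84 in C57BL/10J minus C57BL/6J and near 2.08 in NOD/ShiLtJ minus NOR/LtJ, crosses alone appear in CBA/J minus CBA/CaJ, and NZB/BINJ minus NZW/LacJ has dots on both sides of 0; the black line is the median of all probe sets.

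Each of the other 39 strains was also compared with C57BL/6J, with a call at an adjusted p under 0.05 and a difference of at least 1. These comparisons share the 5 C57BL/6J arrays, so a low level in C57BL/6J enters all of them. Of 1950 differences of histone sets 605 were higher and 30 lower, against 0.929% higher and 0.688% lower over all probe sets. Of these calls, 249 higher and 16 lower ones came from sets with 1 symbol. Higher calls were found in 36 strains, led by NON/ShiLtJ and MRL/MpJ with 36 sets each, the group titled BTBR with 33 and AKR/J with 31. JF1/Ms, NOR/LtJ and the group titled C57BR had none. Over all probe sets the share higher was 1.96% in NON/ShiLtJ, 1.47% in MRL/MpJ, 1.58% in the group titled BTBR and 1.59% in AKR/J, and 1.31% in JF1/Ms, 0.449% in NOR/LtJ and 0.209% in the group titled C57BR. H2bc18 was higher in 33 of 39 strains, H2bc3 in 30, each of the 10 shared H3 sets in 27 and H2ac4 in 22. All 30 lower calls fell on H4 sets (25) or on H2bc4 (5), and H4c4 alone was lower in 9 strains and higher in 3. The other lower H4 calls were on the shared sets that list H4c4, in 3 or 4 strains each, and on H4c6, in 2. H1f2, H2ac1, H2bc21, H3c7, H4c9 and 2 shared H2B sets were called in no strain.

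No histone set was called in wild-derived minus classical strains (0 higher and 0 lower of 50, limma on strain means), where 6.64% of all probe sets were higher and 5.55% lower. At an unadjusted p under 0.05, 2 were higher and 12 lower, and a fit over arrays with strain as a random block called 2 higher and 11 lower. The median difference was -0.42 over the histone sets and 0.03 over all sets. H4c6 came closest, at 8.42 ± 0.99 in wild-derived strains (SD, n = 5) and 9.62 ± 0.92 in classical strains (SD, n = 35), a difference of -1.20 (SE 0.43, adjusted p = 0.059 by limma). H1f2 ran the other way, at 11.16 ± 0.32 in wild-derived strains and 10.70 ± 0.37 in classical strains (adjusted p = 0.0641 by limma), and all 5 wild-derived means lay above the classical median. So did those of H2bc4, at 11.26 ± 0.30 in wild-derived and 10.75 ± 0.51 in classical strains (adjusted p = 0.138 by limma). The outcome depended on WSB/EiJ, the wild-derived strain with the highest histone mean: without it 6 sets were lower, H4c6 among them (difference -1.59, adjusted p = 0.0145 by limma). Single arrays also decided these calls: H4c6 passed without CAST/EiJ replicate 2, JF1/Ms replicate 1, MSM/Ms replicate 2, PWD/PHJ replicate 1 or WSB/EiJ replicate 2 (adjusted p between 0.0362 and 0.0499 by limma). H1f2 passed as higher without PWD/PHJ, or without CAST/EiJ replicate 3, JF1/Ms replicate 2, PWD/PHJ replicate 2, WSB/EiJ replicate 2 or the FVB/NJ array (adjusted p between 0.0268 and 0.0498 by limma).

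Other genes of histone supply and of the cell cycle were read from lists chosen with earlier results of these data known. Of all probe sets 56% passed the F test and 24.5% also had a 2-fold range, and of bright sets 84.9% and 42.5%. Of 8 regulators of histone gene transcription all 8 passed the F test, 7 with a 2-fold range. Cdc25a, a phosphatase that activates Cdk2, was highest in NON/ShiLtJ (10.00) and lowest in NOR/LtJ (8.21), and Ccne2, a cyclin E, ran between 7.86 in NON/ShiLtJ and 5.92 in JF1/Ms. Npat ran between 7.50 in the group titled Balb and 6.28 in MA/MyJ (SD 0.28), and Hinfp, a factor that binds H4 promoters, had the smallest SD of the 8, at 0.16. Of 9 genes that process histone mRNA 8 passed but 2 had a 2-fold range, and Slbp, the stem-loop binding protein, had an SD of 0.19. Of 7 chaperones all 7 passed with a 2-fold range, led by Asf1b, which hands H3 and H4 to assembly factors: 10.66 in NON/ShiLtJ and 7.01 in NOR/LtJ. Among 8 genes listed as replication-independent histones H2ax varied most, with an SD of 0.72. Both shared H2A sets also list H2ax.

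Across the 40 strains, the histone mean ran with the mean of 15 mitosis genes at r = 0.88 and of 21 S phase genes at r = 0.85. It ran with replication-independent histones at 0.81, progenitor and azurophil granule genes at 0.78, chaperones at 0.76, transcription regulators at 0.72 and mRNA processing genes at 0.62. These are descriptions over strain means that share arrays, and H2ax, a listed replication-independent histone, is also read by the shared H2A sets. The mean of the mitosis genes was 9.67 in NON/ShiLtJ, 7.32 in C57BL/6J and 6.87 in NOR/LtJ. Away from the line on S phase genes, the histone mean lay 0.71 below it in the group titled C57BR and 0.43 below it in P/J, and 0.48 above it in NZB/BINJ and 0.47 above it in A/J and WSB/EiJ.

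**Figure D5:**
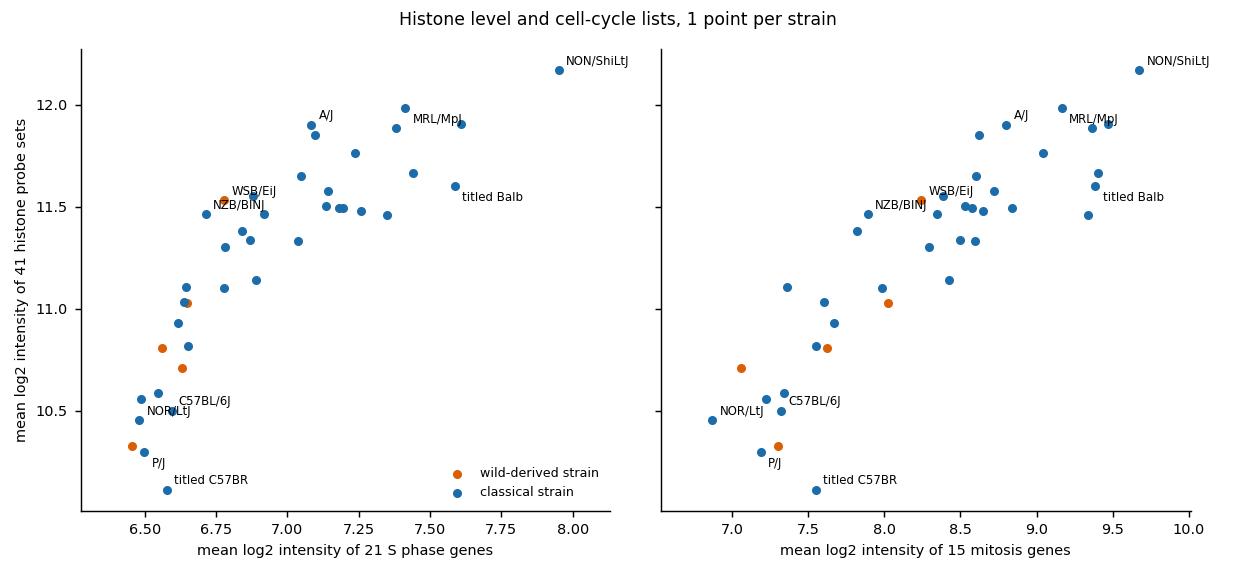
Mean log2 intensity of the 41 bright histone probe sets (vertical axis) against the mean of 21 S phase genes (left) and 15 mitosis genes (right), 1 point per strain. Histone levels climb with both lists, and the group titled C57BR lies below other strains of like S phase level while NZB/BINJ and WSB/EiJ lie above.

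In the pairs, these lists often moved with the histones. All 15 mitosis genes were higher in C57BL/10J minus C57BL/6J, NOD/ShiLtJ minus NOR/LtJ and MRL/MpJ minus LGJ, with median differences of 1.35, 2.02 and 1.63. In the same pairs 6, 8 and 13 of the 21 S phase genes were higher, where 1.89%, 3.05% and 2.82% of all probe sets were. In NON/ShiLtJ minus NOD/ShiLtJ the order turned, with 15 S phase genes and 6 mitosis genes higher (2.71% of all sets). In CBA/J minus CBA/CaJ, where no histone set was called, 9 mitosis and 5 S phase genes were higher (1.14% of all sets), among them Top2a by 1.51 (adjusted p = 0.036, limma). In NZB/BINJ minus NZW/LacJ 12 S phase and 8 mitosis genes were lower, where 21.3% of all sets were, while 9 H2B sets were higher. Asf1b was called in all 6 pairs: lower in NZB/BINJ minus NZW/LacJ (difference -1.15), and higher in the other 5, by between 0.98 in CBA/J minus CBA/CaJ and 2.21 in NOD/ShiLtJ minus NOR/LtJ.

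Lists for maturity and for other cells had lower correlations with the histone mean than the cell cycle lists, with exceptions among single genes. The histone mean correlated at 0.11 with the 8 neutrophil markers, -0.10 with 6 genes of mature neutrophils and 0.37 with 7 specific granule genes. None of the 8 B cell markers was called in the pairs other than NZB/BINJ minus NZW/LacJ, where 5 were higher (24.1% of all sets). The 6 T and NK cell markers varied as much as the S phase list (SD 0.37) and correlated with the histone mean at 0.30: Cd3d had an SD of 1.26 and r = 0.21, and Nkg7, a cytotoxic granule gene highest in NON/ShiLtJ, had r = 0.71, while Cd3e and Cd8a had 0.10 and 0.06. The 7 monocyte and macrophage markers correlated at 0.19, with C1qa at 0.48 and Csf1r at -0.45, and the 4 megakaryocyte markers at -0.05. The 6 erythroid markers correlated with the histone mean at 0.55, and their mean ran between 6.74 in NZB/BINJ and 6.29 in JF1/Ms. Tfrc, the transferrin receptor that dividing cells also use, had r = 0.58, Slc4a1 had 0.32, Car1 0.16, Klf1 0.12, Alas2 0.03 and Epor -0.19. The mean of the 9 progenitor and azurophil genes ran from 6.78 in JF1/Ms to 7.76 in NON/ShiLtJ. Single genes of this list differed: Ms4a3, a progenitor marker, correlated with the histone mean at 0.81 and Gfi1 at 0.75. Mpo had r = 0.52, Elane and Cebpe 0.51 each, Prtn3 0.43, Kit 0.37, Ctsg 0.18 and Cd34 -0.24. The part of these cells in the histone differences was not tested.

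The probe sets most like the mean of the bright histone sets, among 9295 with 1 symbol and a mean of at least 7 that are no members, were H4f16 (r = 0.92 over 40 strain means), Cdk1 (0.91), H2ax, Plk1 and both sets of Stmn1 (0.90 each). H4f16 is a histone H4 gene whose symbol lies outside the rule, and the shared H2A sets also list H2ax. Most like H2ac4 were H4f16, Asf1b, Rrm1, Tubb5, Ccna2 and Prc1, with r between 0.89 and 0.87. Histone genes that follow each other on chromosome 13 among those with a set of their own did not always share an order of strains. H4c8 and H2bc9 correlated at 0.92 and H2bc14 and H2ac15 at 0.89, but H2bc4 and H4c3 at -0.13 and H1f2 and H2bc3 at -0.12.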

How the data were processed

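TriZol extraction and a whole-transcript labelling kit preceded hybridisation, per the labels' protocols. The authors deposited linear intensity values, 1 per probe set and array. Affymetrix Power Tools and RMA are named in the submitters' processing notes, with no version. Values were turned into log2 here, with no further scaling. Scanner signals were not used, so saturation and background were not examined. Names came from the platform's gene table (1 symbol for 21425 probe sets, several for 1399, none for 2098).

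Arrays were grouped by title. limma 3.58.1 (R 4.3.3) fitted 1 mean per group over 81 arrays (41 residual and 7.93 prior degrees of freedom), with Benjamini-Hochberg adjustment over all 24922 probe sets. This fit gave the F test, the 6 pairs and the differences from C57BL/6J. For FVB/NJ and SWR/J it assumes the spread of the other groups. The contrast of origins used 1 mean per strain. The code was tested on simulated data.

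Members and lists were chosen with earlier results of these data known. Any member may be named; those given in full had the 6 largest or 3 smallest SDs among bright sets or were called in a contrast. Shared-set means and the H4c4 gap were added after the values were seen. Alternatives covered normalization, the prior, filters on dim sets, a replicate block, the grouping, and leaving out each array.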

Additional observations from a re-analysis of the deposited data

Results flagged for a closer look

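Of 102 groups of values tested, 1 held a value far from the others. For each histone set and for the mean of the bright sets, the groups were the C57BL/6J arrays and the wild-derived strain means. C57BL/6J is the only strain with more than 2 arrays. H3c4, an H3 gene, read 6.78 in C57BL/6J replicate 4, while the nearest of the other C57BL/6J arrays read 6.36 and the far end 6.25, a gap of 0.788 of the range where the limit for 5 values is 0.71. Chance flags about 1 in 20 groups.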

How the results depend on the processing

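No difference that passed its test changed sign under an alternative run, but 9 that did not pass did so, in 15 values. In NZB/BINJ minus NZW/LacJ, quantile normalization gave 0.0062 for H1f5, 0.088 for H2ac15, 0.24 for H2bc3 and 0.33 for H4c6, and leaving out 1 array gave -0.75 to 0.11 for H1f2, -0.20 to 0.026 for H2ac15, -0.22 to 0.12 for H2bc3 and -0.29 to 0.28 for H4c6, with 0.20 for H4c6 without NZB/BINJ replicate 2, against main values of -0.38 for H1f5, -0.086 for H2ac15, -0.051 for H2bc3, -0.0037 for H4c6 and -0.32 for H1f2. In CBA/J minus CBA/CaJ, H1f2 (0.28) turned to -0.011 by background label and ran from -0.12 to 0.68 with 1 array left out, H2bc4 (0.092) to -0.14 by background label and ran from -0.026 to 0.21 with 1 array left out, and H4c4 (0.061) to -0.0021 with quantile normalization. In MRL/MpJ minus LGJ, H2bc4 (0.069) ran from -0.099 to 0.24 with 1 array left out. Restricted to sets with 1 symbol, counts fall by construction: 26 passed the F test and 23 with 2-fold, 249 differences from C57BL/6J were higher and 16 lower, and 17 were higher in C57BL/10J minus C57BL/6J, 9 in NOD/ShiLtJ minus NOR/LtJ, 6 in NZB/BINJ minus NZW/LacJ and 20 in MRL/MpJ minus LGJ. In NZB/BINJ minus NZW/LacJ, 7 were higher with a common array median and 3 lower with sets of mean 7 or more. Grouping by background label gave 21 higher in CBA/J minus CBA/CaJ, where the group titled C57BR joins CBA/CaJ. For wild-derived minus classical strains, 1 was higher and 1 lower with either filter on dim sets, 1 lower without the 5 groups of conflicting labels or by background label, 1 higher without groups of 1 array, and 2 higher and 11 lower over arrays with strain as a random block. Leaving out 1 array or strain, the counts ran from 0 to 1 higher and 0 to 6 lower for origin, 5 to 12 higher and 2 to 6 lower for NZB/BINJ minus NZW/LacJ, 24 to 40 for MRL/MpJ minus LGJ, 31 to 44 for C57BL/10J minus C57BL/6J, 22 to 30 for NOD/ShiLtJ minus NOR/LtJ and 14 to 20 for NON/ShiLtJ minus NOD/ShiLtJ. The cause of these changes was not tested where fewer sets or arrays do not give it. Titles share replicate numbers, but same-numbered arrays deviated together in 157 of 630 pairs of groups (r over 0.1; median 0.00417), so the numbers were not taken as a pairing. With the replicate block, 50 sets passed the F test, 749 differences from C57BL/6J were higher and 26 lower, and the pairs gave 42, 25, 20, 36, and 11 higher with 6 lower, in C57BL/10J, NOD/ShiLtJ, NON/ShiLtJ, MRL/MpJ and NZB/BINJ against their partners. Most strains have 2 arrays, so a single array can decide a call.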
